A study of Mus musculus with 12 samples.

Results

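The genes described here are 10 genes of Notch signaling in differentiated C2C12 cells: the receptor genes Notch1, Notch2 and Notch3, the ligand genes Jag1, Jag2 and Dll1, and Hes1, Hes6, Hey1 and Heyl, which encode transcriptional repressors of the HES/HEY family. They were found by gene symbol among the 15113 genes of the count table, and all 10 had a value in every library. They were selected with their change between BAM15 and vehicle already known from these data, so that change is described without p-values. Its intervals and calls are descriptions that are not corrected for this selection. C2C12 is a line of mouse myoblasts that form multinucleated myotubes in low serum, and the cells were labelled as fully differentiated myotubes. There were 6 libraries from myotubes given 20 μM BAM15, a mitochondrial uncoupler dissolved in DMSO, for 16 h and 6 libraries from myotubes given vehicle for the same 16 h. All libraries came from this line, with no genetic change stated, and whether the libraries of a condition came from separate cultures was not stated, so the tests measure only the spread between libraries.

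Notch signaling passes between touching cells. A Jagged or Delta-like ligand on one cell binds a Notch receptor on its neighbor, ADAM proteases and then γ-secretase cut the receptor, and its freed intracellular part enters the nucleus and joins the DNA-binding protein RBPJ and a Mastermind coactivator. Hes1, Hey1 and Heyl are well-known targets of this complex, and in skeletal muscle the pathway is known for holding satellite cells and myoblasts in an undifferentiated state.

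HES products recruit Groucho/TLE corepressors through a short motif at or near their end, and HEY products carry a variant of it. The last 16 codons before the stop codon are shown for Hes1, Hes6 and Heyl because the HES and HEY branches, whose values are given separately below, can be told apart there. Sequences are from GRCm38 with GENCODE M21 transcripts, 5′ to 3′ on the strand of the gene, and capitals mark the 4 codons of the motif or its counterpart. All lie in the last exon of the transcript.
Hes1 (chr16:30067378-30067425, plus strand): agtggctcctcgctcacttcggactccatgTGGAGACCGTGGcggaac
Hes6 (chr1:91412061-91412108, minus strand): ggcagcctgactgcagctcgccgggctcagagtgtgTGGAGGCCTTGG
Heyl (chr4:123246580-123246627, plus strand): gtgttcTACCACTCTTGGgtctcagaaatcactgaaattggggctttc
In Hes1 and Hes6 the marked codons start with tryptophan and are followed by 2 and 0 codons before the stop. In Heyl they start with tyrosine and are followed by 10 codons.

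Promoter windows of 300 bases, from 250 bases before to 50 bases after a RefSeq transcript start (GRCm38.p6), were given for 7 of the 10 genes, with 9 windows in all because Dll1 and Hes6 have 2 each. Hes1, Hey1 and Heyl had no entry. Windows were searched on both strands for TGGGAA, the core letters that RBPJ binds, for CACGNG, a site of HES/HEY proteins, and for CACNAG, the N box that HES proteins also bind, and the letters CACGAG match both of the last 2. TGGGAA was in 0 of the 9 windows and in 25.6% of the 32851 windows of the table. CACGNG was in 7 of the 9 windows and in 27.5% of all, and CACNAG was in 5 of the 9 and in 42.5% of all. The G and C share of the 9 windows ran from 55.7% to 86.0%. That of all 32851 windows was not taken, and letters rich in G and C depend on it. No excess or lack of a motif is therefore read from these shares. The windows of Jag1 and Notch1, the ligand and the receptor gene of the set whose levels lay farthest apart between conditions, are printed with the matching letters in capitals.
Jag1 (chr2:137116471-137116770, minus strand): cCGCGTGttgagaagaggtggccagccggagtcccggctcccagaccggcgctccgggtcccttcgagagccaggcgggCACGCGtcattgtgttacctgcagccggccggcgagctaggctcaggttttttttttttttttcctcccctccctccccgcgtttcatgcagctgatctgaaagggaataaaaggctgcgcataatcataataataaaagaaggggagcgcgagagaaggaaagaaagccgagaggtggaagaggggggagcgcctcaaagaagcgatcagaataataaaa
Notch1 (chr2:26503773-26504072, minus strand): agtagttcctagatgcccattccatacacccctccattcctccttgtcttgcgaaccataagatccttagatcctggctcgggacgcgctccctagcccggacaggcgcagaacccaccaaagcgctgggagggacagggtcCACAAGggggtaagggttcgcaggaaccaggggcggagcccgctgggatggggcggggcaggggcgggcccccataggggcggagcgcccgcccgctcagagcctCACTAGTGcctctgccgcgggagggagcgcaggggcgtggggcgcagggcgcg
The Jag1 window holds CACGNG starting 249 and 171 bases before the transcript start. The Notch1 window holds CACNAG starting 108, 3 and 1 bases before its start, the last 2 overlapping on opposite strands. A match of letters is a description of the sequence and no evidence that a protein was bound.

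Total counts per library were 15299135 to 18866728 with vehicle and 13983725 to 18751780 with BAM15. Values are normalized counts, meaning reads per gene scaled by library size and TMM factor, from a 3′ protocol that reads the end of a transcript, so levels are compared between conditions and not between genes. A gene was called at an adjusted p-value below 0.01 in the quasi-likelihood test of edgeR, adjusted after Benjamini and Hochberg, and was past the 3 thresholds of the study if it also had a mean normalized count above 50 and a change of more than 2-fold. Of the 12730 tested genes 42.3% were called, 22% as higher and 20.3% as lower with BAM15, and 3.7% and 3.58% were past the 3 thresholds in these directions. In 34.2% the 6 BAM15 values and the 6 vehicle values did not overlap. Of the 10 Notch genes, 4 were called, 1 higher and 3 lower, 3 were past the 3 thresholds, 1 higher and 2 lower, and 4 did not overlap, and nothing is read from these counts because the genes were chosen on this comparison. Their median log2 fold change was -0.29, against 0.02 for all tested genes, and nothing is read from it for the same reason.

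The BAM15 libraries numbered 1 to 3 stood apart from those numbered 4 to 6. Between these BAM15 libraries 38.8% of tested genes differed at an adjusted p-value below 0.05 in edgeR's quasi-likelihood test. Among them were 4 of the 10 Notch genes (Notch2, Jag1, Hes1 and Hes6). By contrast, the same split of the vehicle libraries gave 0 genes. At an unadjusted p-value below 0.05 the vehicle split gave 696 genes, including 2 of the 10 (Notch2 and Notch3). The labels do not say what the numbers stand for, and the split was adopted after the libraries had been seen to stand apart. Changes are therefore also given within numbers 1 to 3 and within 4 to 6, and the difference between these changes was tested as an interaction, which 2.66% of tested genes passed at an adjusted p-value below 0.05.

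BAM15 was accompanied by lower Notch1, much lower Heyl and higher Jag1, with every BAM15 library beyond every vehicle library. Hes6 was slightly lower, also without overlap. Hes1 and Notch2 were low in the BAM15 libraries numbered 1 to 3 and close to vehicle in those numbered 4 to 6. Over all 12 libraries, the difference between these changes did not pass the adjusted threshold for either gene. Vehicle libraries numbered 4 to 6 were also higher than those numbered 1 to 3, by 0.34 for Hes1 and 0.38 for Notch2 (log2).

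**Figure D1:**
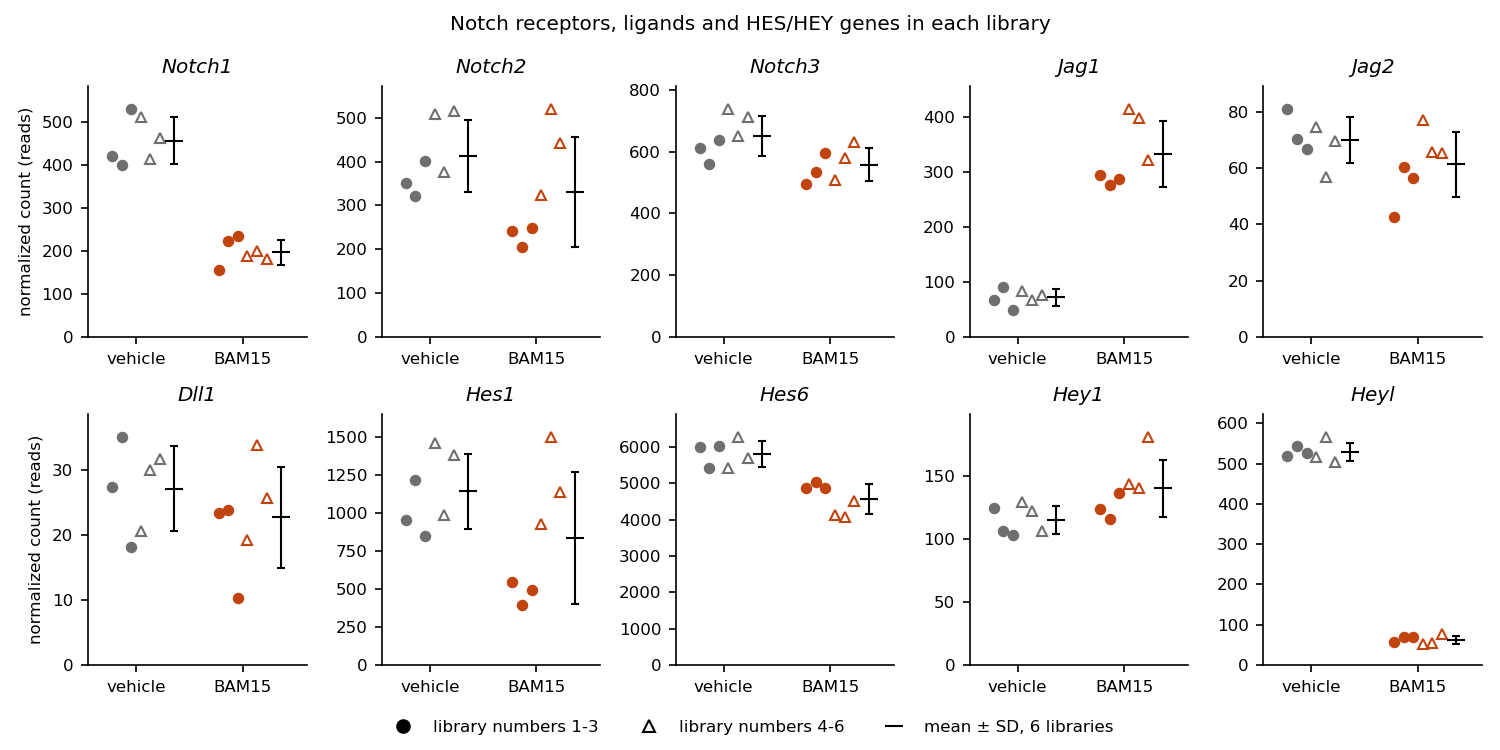
Normalized count (reads, y axis from 0) of each of the 10 Notch genes in the 6 vehicle libraries (grey) and the 6 BAM15 libraries (orange), with filled circles for library numbers 1 to 3, open triangles for 4 to 6, and the mean and SD of 6 libraries in black. Notch1, Jag1, Hes6 and Heyl show no overlap between conditions, and in Hes1 the BAM15 libraries form a low and a high set, from 395 to 544 and from 927 to 1501.

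Notch1 (chr2:26457903-26516663, minus strand), a receptor known for its part in satellite cell maintenance, had normalized counts of 400 to 531 with vehicle, with a median of 442. With BAM15 its normalized counts were 155 to 235, with a median of 194. All 6 BAM15 libraries were below all vehicle libraries. The mean went from 457 ± 54.8 to 198 ± 29.2 (SD, n = 6 each), a log2 fold change of -1.21 ± 0.11 (SE; 95% interval -1.44 to -0.98) or 2.31-fold. The change was -1.14 within library numbers 1 to 3 and -1.28 within 4 to 6. The last 400 bases of the Notch1 transcript, where 3′ reads fall, are overlapped in all 400 positions by exons of 0610009E02Rik and Gm13568 on the opposite strand. The strand setting of the counting was not given in the sources used here. 0610009E02Rik itself had a mean normalized count of 17.6 and a difference of 0.37 ± 0.28 on the log2 scale that was not significant (adjusted p = 0.279, edgeR). No value is given here for Gm13568, and the part of opposite-strand reads in the Notch1 counts was not tested. No other gene of the set had such an overlap in its last 400 bases.

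Notch2 (chr3:98013527-98150361, plus strand), a receptor also found in muscle progenitors, had normalized counts of 321 to 515 with vehicle and 206 to 520 with BAM15, with medians of 389 and 287. The conditions overlapped, and the BAM15 libraries numbered 1 to 3 (206 to 249) were all below the vehicle libraries while those numbered 4 to 6 (325 to 520) fell within or just above their range. The log2 fold change was -0.32 ± 0.22 (95% interval -0.79 to 0.15) over all libraries, -0.62 ± 0.16 within numbers 1 to 3 and -0.12 ± 0.16 within 4 to 6. The difference between these changes, 0.50, was not significant over all genes (adjusted p = 0.18, edgeR).

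Notch3 (chr17:32120820-32166852, minus strand), a receptor best known in vascular smooth muscle and also present in satellite cells, had normalized counts of 561 to 738 with vehicle and 496 to 632 with BAM15. These ranges overlapped, with medians of 643 and 555. The log2 fold change of -0.23 ± 0.08 (95% interval -0.40 to -0.05) did not reach the adjusted threshold.

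Jag1 (chr2:137081456-137116644, minus strand), which encodes the ligand Jagged 1, was the gene of the set with the largest increase. Its normalized counts were 48.7 to 91.5 with vehicle, with a median of 71.9. With BAM15 they were 276 to 414, with a median of 309. The lowest BAM15 library stood well above the highest vehicle library. The mean went from 72.4 ± 14.98 to 332 ± 59.6 (SD, n = 6 each), a log2 fold change of 2.20 ± 0.15 (95% interval 1.88 to 2.52) or 4.59-fold. The change was 2.06 within numbers 1 to 3 and 2.32 within 4 to 6, and the difference of 0.26 was not significant (adjusted p = 0.512, edgeR).

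The other ligand genes did not follow Jag1. Jag2 (chr12:112907819-112929776, minus strand), which encodes Jagged 2, had normalized counts of 56.7 to 81.0 with vehicle and 42.7 to 76.9 with BAM15. These ranges overlapped, and the log2 fold change was -0.19 ± 0.14 (95% interval -0.49 to 0.11), with -0.45 ± 0.19 within numbers 1 to 3 and 0.05 ± 0.18 within 4 to 6. Dll1 (chr17:15367354-15376872, minus strand), which encodes Delta-like 1, had 18.2 to 35.1 with vehicle and 10.3 to 33.8 with BAM15. It rested on 11 to 36 reads per library and its mean normalized count of 24.9 lay below the minimum of 50. Its log2 fold change was -0.26 ± 0.25 (95% interval -0.79 to 0.27).

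Heyl (chr4:123233556-123249875, plus strand), a HEY repressor that is a Notch target in muscle progenitors, had the largest change of the 10 genes. With vehicle its normalized counts were 504 to 567, with a median of 523. With BAM15 they were 52.3 to 77.0, with a median of 62.5. The conditions were far apart, and the spread within each was small beside the distance between them. The mean went from 529 ± 22.8 to 63.0 ± 9.98 (SD, n = 6 each), to 11.9% of vehicle, a log2 fold change of -3.07 ± 0.10 (95% interval -3.28 to -2.87) or 8.41-fold lower. Both sets of library numbers gave this change, with -3.03 for 1 to 3 and -3.12 for 4 to 6.

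Hey1 (chr3:8663359-8667256, minus strand), the other HEY gene and also a Notch target, moved little and toward higher values. Its normalized counts were 103 to 129 with vehicle and 116 to 181 with BAM15, with medians of 114 and 138. The ranges overlapped, and the log2 fold change of 0.28 ± 0.11 (95% interval 0.04 to 0.52) did not reach the adjusted threshold.

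Hes1 (chr16:30064384-30067796, plus strand), a widely used readout of Notch activity that other signals also control, had normalized counts of 850 to 1459 with vehicle, with a median of 1099. With BAM15 its normalized counts were 395 to 1501, with a median of 735. The BAM15 libraries numbered 1 to 3 (395 to 544) were below every vehicle library, and those numbered 4 to 6 (927 to 1501) lay among or just above them. The log2 fold change was -0.45 ± 0.31 (95% interval -1.12 to 0.22) over all libraries, -1.07 ± 0.22 within numbers 1 to 3 and -0.10 ± 0.21 within 4 to 6. The difference between these changes was 0.97 ± 0.31 and did not pass the adjusted threshold (adjusted p = 0.0929, edgeR). None of the 10 genes passed this test, with 3 at an unadjusted p-value below 0.05, beside 339 and 3313 of all tested genes. Without BAM15 replicate 4, 2 of the 10 passed it, Hes1 with a difference of 1.12 (adjusted p = 0.0305) and Notch2 with 0.66 (adjusted p = 0.018).

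Hes6 (chr1:91411483-91414038, minus strand), known as a HES family member that is present during myogenic differentiation and can oppose HES1, had normalized counts of 5416 to 6285 with vehicle and 4064 to 5038 with BAM15. The ranges did not overlap, although they were close. The mean went from 5807 ± 350.3 to 4578 ± 414 (SD, n = 6 each), a log2 fold change of -0.34 ± 0.07 (95% interval -0.48 to -0.20) or 1.27-fold lower. It was -0.24 within numbers 1 to 3 and -0.45 within 4 to 6.

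**Figure D2:**
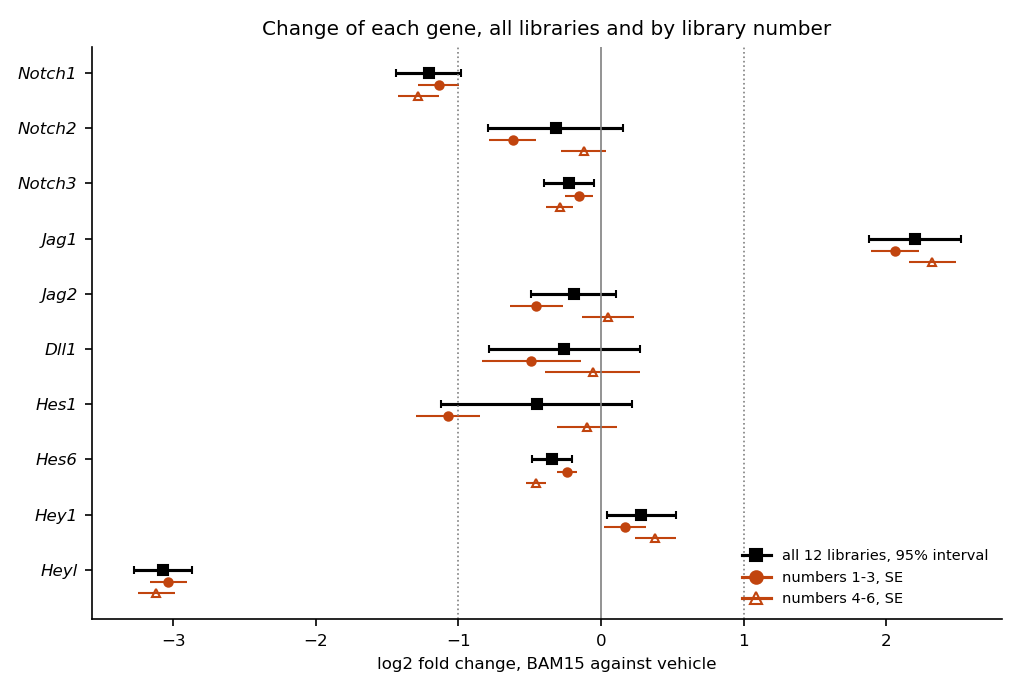
Log2 fold change between BAM15 and vehicle (x axis) of the 10 Notch genes, with black squares and 95% intervals for all 12 libraries, and orange circles and triangles with SE for library numbers 1 to 3 and 4 to 6, and dotted lines at a 2-fold change. Heyl at -3.07, Notch1 at -1.21 and Jag1 at 2.20 keep nearly the same value in both sets of numbers, and Hes1 moves from -1.07 to -0.10.

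The rest of the pathway was followed in 78 further genes in 5 lists by role. Of these, 61 were tested, 5 had too few counts for a test and 12 were not analysed here. Among the 61, 9 rose and 13 fell at the adjusted threshold, 39 did not pass, and 2 and 5 were past the 3 thresholds in these directions. The share called was 22% higher and 20.3% lower over all genes. In 20 of the 61 the conditions did not overlap, against 34.2% of all tested genes. Their median log2 fold change was -0.07. The text names the genes past the 3 thresholds with their values in full and the others called in brief. The 5 lists were chosen with earlier results of these data known, so the adjusted p-values of their genes are descriptions and no independent support.

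**Figure D3:**
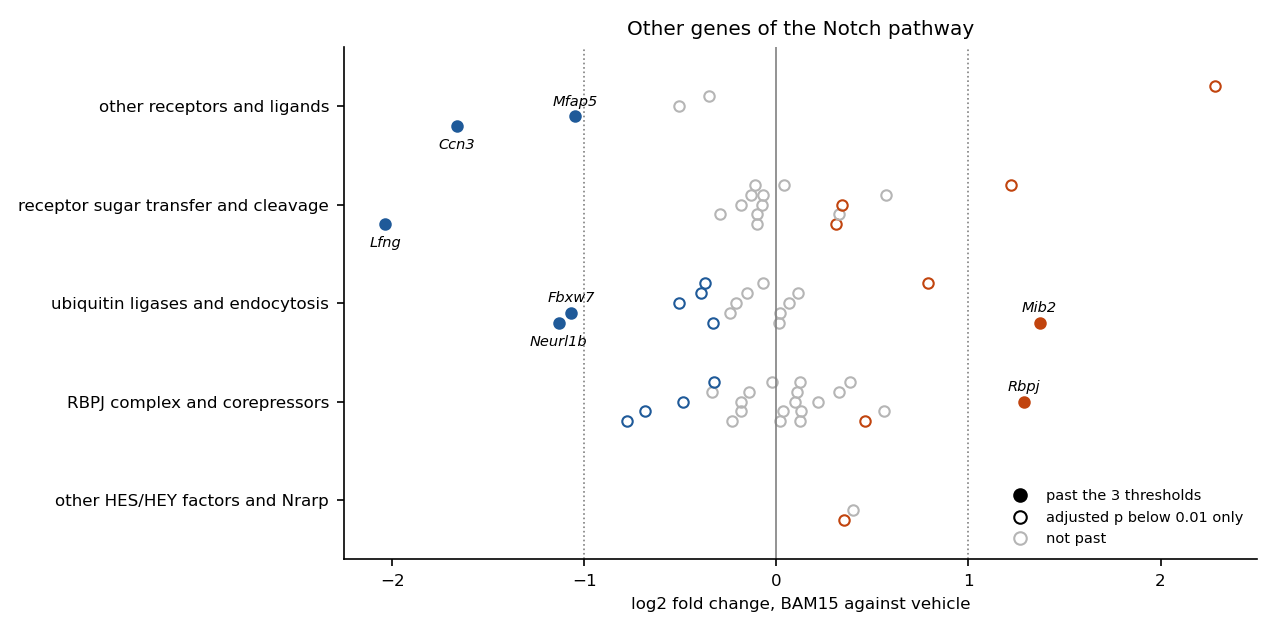
Log2 fold change between BAM15 and vehicle (x axis) of the 61 tested genes in the 5 lists of other Notch pathway genes (y axis), each point a gene, orange where higher and blue where lower at an adjusted p-value below 0.01, filled where past the 3 thresholds and grey where not past, with dotted lines at a 2-fold change. Most points lie near 0, and Mib2 (1.37), Rbpj (1.29), Lfng (-2.04), Ccn3 (-1.66), Neurl1b (-1.13), Fbxw7 (-1.07) and Mfap5 (-1.05) are filled.

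Of the 11 other receptors and ligands, 5 were tested, 1 rose and 2 fell. Ccn3, which encodes a matricellular protein that can bind Notch1, had normalized counts of 450.1 to 583 with vehicle and 129 to 166 with BAM15. It fell by 1.66 on the log2 scale (SE 0.09, adjusted p = 8.25e-10, edgeR). Mfap5, which encodes a microfibril protein that can bind Notch receptors and ligands, went from 643 to 712 with vehicle to 258 to 394 with BAM15, and fell by 1.05 (SE 0.09, adjusted p = 1.50e-07). Neither gene's BAM15 range touched its vehicle range. Within numbers 1 to 3 the change of Mfap5 was -0.89, under 2-fold. Dner, a non-canonical ligand gene known from the nervous system, rose by 2.29 on the log2 scale (SE 0.47, adjusted p = 7.28e-04, edgeR) on 0 to 11 reads with vehicle and 12 to 26 with BAM15, and its mean normalized count was below 50. Dlk2 and Egfl7 did not pass. The receptor gene Notch4 had 0 to 5 reads with vehicle and 3 to 7 with BAM15, and Mfap2 had 6 to 14 and 0 to 4, both too few for a test. Dll3, Dll4, Dlk1 and Cntn1 were not analysed here.

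Of the 16 genes for adding sugars to the receptor and cutting it, 15 were tested, 3 rose and 1 fell. Lfng, a Fringe glycosyltransferase that changes which ligands a Notch receptor responds to, had normalized counts of 87.0 to 122 with vehicle and 16.9 to 34.8 with BAM15. The ranges lay far apart. It fell by 2.04 on the log2 scale (SE 0.16, adjusted p = 5.38e-08, edgeR), the largest decrease among the 61 genes. Rfng, another Fringe gene, had a log2 fold change of -0.08 and did not pass, and Mfng was not analysed here. Poglut1, which adds glucose to Notch, rose by 0.31 (adjusted p = 1.05e-03), Psen2, a catalytic γ-secretase subunit, by 0.34 (adjusted p = 1.59e-04) and Aph1c, another subunit, by 1.22 (adjusted p = 1.18e-04) at a mean normalized count of 27.4. The proteases Adam10 and Adam17 and the γ-secretase genes Ncstn, Aph1a, Aph1b and Psenen did not pass. Furin, which makes the first cut in the receptor, did not pass over all libraries, with a log2 fold change of -0.29 ± 0.10, and was -0.10 within numbers 1 to 3 and -0.52 within 4 to 6, a difference of -0.42 (adjusted p = 0.0444, edgeR).

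Of the 18 genes for ubiquitin ligases and endocytosis, 16 were tested, 2 rose and 6 fell. Mib2, a Mind bomb ligase that promotes ligand endocytosis and is known in muscle, had normalized counts of 409 to 461 with vehicle and 976 to 1218 with BAM15. The conditions were separate, and it rose by 1.37 on the log2 scale (SE 0.06, adjusted p = 1.61e-10, edgeR), whereas its relative Mib1 had a log2 fold change of -0.21 and did not pass. Neurl1b, a Neuralized ligase for ligands, went from 419 to 563 with vehicle to 171 to 256 with BAM15 and fell by 1.13 (SE 0.10, adjusted p = 1.50e-07). Fbxw7, which marks the freed Notch intracellular part for degradation, went from 3097 to 3658 to 1376 to 1992 and fell by 1.07 (SE 0.08, adjusted p = 3.13e-08). For both genes all BAM15 libraries were below all vehicle libraries, and the change of Fbxw7 was -0.96, under 2-fold, within numbers 4 to 6. Smaller changes were a rise of the Deltex gene Dtx3 (0.79, adjusted p = 2.35e-05) and lower values of Dtx4 (-0.51, adjusted p = 1.00e-04), Epn2 (-0.39, adjusted p = 1.24e-05), Neurl1a (-0.37, adjusted p = 1.24e-03) and Aak1 (-0.33, adjusted p = 2.21e-03). Numb and Numbl, which encode Notch antagonists, and Itch, Nedd4 and Cbl did not pass. Neurl3 had too few counts, 4 to 10 with vehicle and 5 to 14 with BAM15, and Dtx1 was not analysed here.

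Of the 24 genes of the RBPJ complex and its corepressors, 23 were tested, 2 rose and 4 fell. Rbpj, the DNA-binding protein on which canonical Notch signaling converges and which represses targets when no Notch fragment is bound, had normalized counts of 418 to 552 with vehicle and 1112 to 1226 with BAM15. All BAM15 libraries were above all vehicle libraries. The mean went from 479 ± 54.9 to 1173 ± 44.2 (SD, n = 6 each), and Rbpj rose by 1.29 on the log2 scale (SE 0.07, adjusted p = 1.25e-09, edgeR). Of the coactivators, Kat2b fell by 0.78 (adjusted p = 7.92e-05), and Maml1, Maml2, Maml3, Snw1, Ep300, Crebbp and Kat2a did not pass. Of the corepressors, Tle3 rose by 0.46 (adjusted p = 1.29e-03), and Hdac1 fell by 0.68 (adjusted p = 1.27e-03) and Hdac2 by 0.32 (adjusted p = 1.58e-03). Spen, Ncor1, Cir1, Ctbp1, Ctbp2, Kdm5a and the other 4 TLE family genes did not pass, and Rbpjl was not analysed here. Maml3 was 0.14 within numbers 1 to 3 and -0.61 within 4 to 6, a difference of -0.75 (adjusted p = 0.0444).

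The last list has 9 genes, namely other HES and HEY genes, the related Bhlhe40 and Bhlhe41, and Nrarp. Of these 2 were tested, and no HES or HEY gene of the list was among them. Bhlhe41 rose by 0.35 on the log2 scale (SE 0.05, adjusted p = 2.12e-05, edgeR), and its relative Bhlhe40 had 0.40 ± 0.18 and did not pass. Nrarp, a Notch target that feeds back on the pathway, had 5 to 11 reads with vehicle and 2 to 11 with BAM15, and Hes7 had 1 to 4 and 4 to 11, so neither was tested. Hes2, Hes3, Hes5, Hey2 and Helt were not analysed here.

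**Figure D4:**
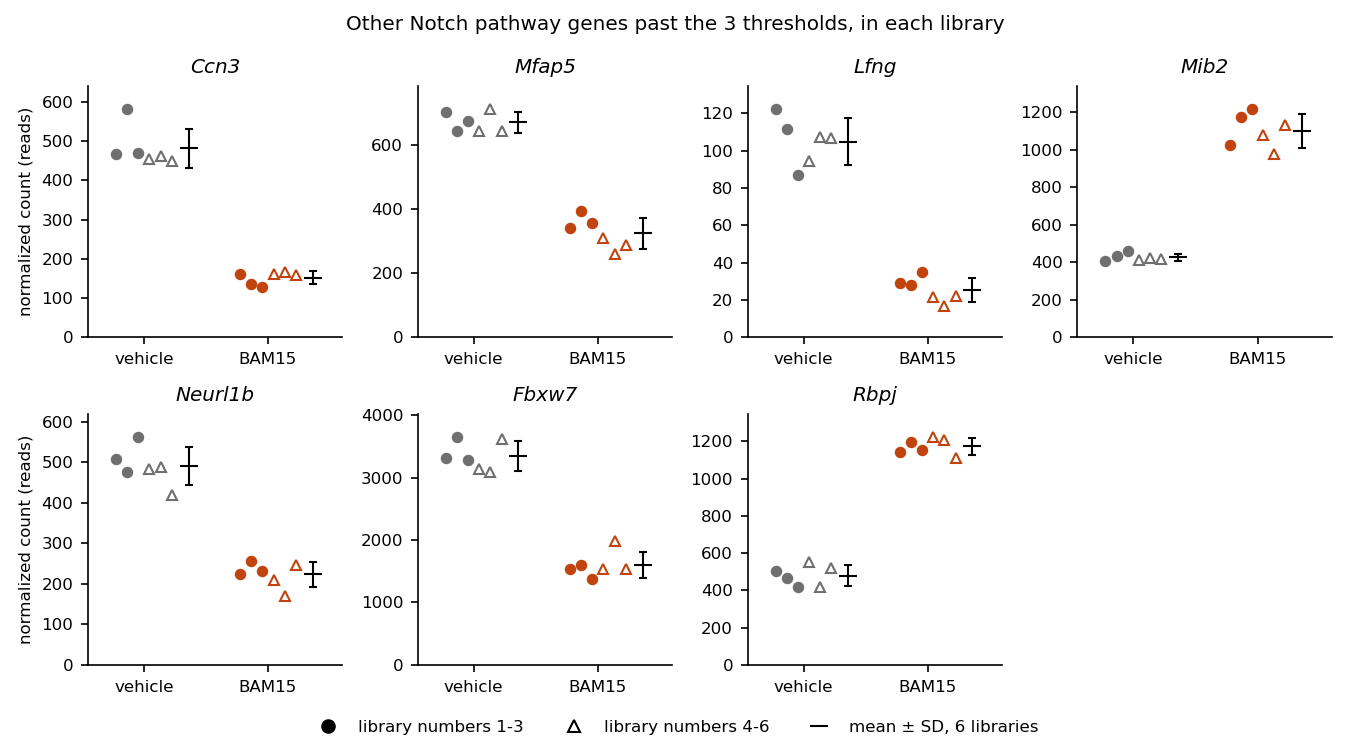
Normalized count (reads, y axis from 0) of the 7 other Notch pathway genes past the 3 thresholds in the 6 vehicle libraries (grey) and the 6 BAM15 libraries (orange), with filled circles for library numbers 1 to 3, open triangles for 4 to 6, and the mean and SD of 6 libraries in black. In all 7 the conditions are separate, with Mib2 and Rbpj higher and Ccn3, Mfap5, Lfng, Neurl1b and Fbxw7 lower with BAM15.

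Markers of several cell types moved as follows, and their part in the values of the Notch genes was not tested. The endothelial and macrophage lists are of cell types that are not part of this myoblast line. In such bulk RNA, fewer cells of a type and less RNA per cell cannot be told apart. The marker lists too were chosen with earlier results of these data known, so their p-values are descriptions only. All 5 dividing cell markers (Mki67, Top2a, Ccnb1, Cdk1 and Rrm2) fell past the 3 thresholds, and their summed normalized count went from 5647 to 6510 with vehicle to 2043 to 2365 with BAM15. The fall was not uniform by library number. BAM15 libraries 4 to 6 minus 1 to 3 gave 1.46 for Cdk1, 1.15 for Rrm2, 0.35 for Ccnb1, -0.41 for Top2a and -0.51 for Mki67 (log2). The change differed between library numbers for Cdk1 (adjusted p = 0.0477) and Rrm2 (adjusted p = 0.0442, edgeR's interaction test). Of the 7 markers of undifferentiated myoblasts and reserve cells, 5 were tested. Pax7 fell by 0.93 on the log2 scale (adjusted p = 4.93e-06, edgeR) and Sdc4 by 1.15 (adjusted p = 1.80e-07), and Myf5 rose by 1.69 (adjusted p = 1.44e-03), with Cd34 and Spry1 not past. Their sum was 1714 to 2209 with vehicle, 1265 to 1348 in BAM15 libraries numbered 1 to 3 and 1648 to 1947 in those numbered 4 to 6. Most of the gap between these BAM15 libraries lay in Myf5, with normalized counts of 188 to 297 and 554 to 845. On the log2 scale, BAM15 libraries 4 to 6 minus 1 to 3, Spry1 differed by 0.68, Pax7 by 0.21, Sdc4 by -0.15 and Cd34 by -0.18, so the list did not move as one.

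The 8 myotube markers were all abundant, with a summed normalized count of 286740 to 322460 with vehicle and, with BAM15, 359930 to 382210 in numbers 1 to 3 and 305430 to 324550 in numbers 4 to 6. Most of the higher sum in numbers 1 to 3 lay in Acta1. Its normalized counts were 117810 to 135140 with vehicle and 184560 to 192480 in BAM15 numbers 1 to 3. Acta1 rose by 0.46 (adjusted p = 3.96e-05, edgeR) and Myog by 0.37 (adjusted p = 3.61e-03), Mymk fell by 0.27 (adjusted p = 4.92e-03) and Ckm by 0.17 (adjusted p = 5.40e-03), and Myh1, Myh3, Myh8 and Tnnc2 did not pass. Of the 5 endothelial markers, Tek had 1 to 6 reads with vehicle and 0 to 5 with BAM15, too few for a test. The others were not analysed here. Of the 5 macrophage markers, Cd68 rose by 2.22 (adjusted p = 8.06e-08) and Cx3cr1 by 1.18 (adjusted p = 5.26e-03), Csf1r had 2 to 17 and 1 to 10 reads, and Ptprc and Adgre1 were not analysed here. The summed normalized count of the macrophage markers was 18.1 to 42.3 with vehicle and 73.5 to 119.9 with BAM15. Its rise lay in Cd68 and Cx3cr1, whose mean normalized counts were 38.9 and 14.3, both below 50. It is not read as a presence of macrophages in this line.

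The genes whose log2 CPM values followed those of Heyl most closely over the 12 libraries were Tk1 (Pearson r = 0.999), Prc1 (r = 0.997) and Sqle (r = 0.997), of which Tk1 and Prc1 act in DNA synthesis and cell division and Sqle in cholesterol synthesis. Those closest to Notch1 were Ercc6l (r = 0.985), Smad3 (r = 0.984) and Tcf7l2 (r = 0.984). These correlations describe libraries that fall into 2 conditions, and most of each value comes from the distance between them.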

How the data were processed

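A 3′ QuantSeq kit was used to sequence 6 libraries of C2C12 myotubes given 20 μM BAM15 and 6 of myotubes given vehicle, both for 16 h. The authors deposited counts, whole numbers of forward reads per Ensembl gene without normalization, made with BlueBee software. The aligner, annotation and strand setting are not given in the sources used here, and the submitters' processing notes name GRCm38 (mm10) and DESeq2 1.22.2. The authors also deposited a normalized signal, which is these counts divided by 1 DESeq2 size factor per library, and its values were not used. The tables hold 11 further sample columns, which were not used.

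The 10 genes, the lists of other pathway genes and markers, and the split of library numbers were chosen with earlier results of these data known. Symbols came from the deposited table for 12820 genes and from GENCODE M21 for 2260. In R 4.3.3 with edgeR 4.0.16, filterByExpr removed 2383 of 15113 genes, TMM factors were 0.932 to 1.04, and a robust quasi-likelihood model with condition as its only term was fitted to the 12730 others, with Benjamini-Hochberg adjustment over all of them. The SE of a log2 fold change was derived from its F statistic. Values printed with ± are SE for log2 fold changes and SD for normalized counts. Calls used an adjusted p-value below 0.01 and, for the 3 thresholds, a mean normalized count above 50 and a change above 2-fold. Genes with too few counts for the filter are given by their read range, and below 3 reads a level cannot be told from 0. Such limits cover counting error only, since PCR reads without molecular identifiers are not independent molecules. All 10 genes are described, other pathway genes are named where they were past the 3 thresholds, for up to 15 more at an adjusted p-value below 0.01, and where they were not tested, and the 3 genes whose log2 CPM values (counts scaled to library size) correlate best with the receptor and the HES/HEY gene of largest change are named. A few items of the lists are not reported here by name. List genes that did not pass were named after their values were seen.

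On simulated counts with 200 changed genes, 184 were past the 3 thresholds with 0 false calls among 12629 genes for BAM15 against vehicle, and 186 were found with 11 false calls among 12627 genes for the difference between library numbers. All changed genes had mean counts above 50 and changes of more than 2-fold, and the first comparison held no difference between library numbers. In the data 42.3% of genes were called, so the simulation does not cover so widespread a change or smaller changes such as that of Hes6. Same-numbered BAM15 and vehicle libraries had deviations from their condition means that correlated at -0.072 to 0.292, over 0.1 in 4 of 6 pairs. Only 2 of 6 libraries correlated best with their own number, so the numbers were not taken to pair the libraries. The correlations over 0.1 leave some shared structure possible. Alternatives were DESeq2 1.42.0, DESeq2 size factors or library size alone in edgeR, no filter, a minimum of 10 counts per library, a block or a term for library number, either set of numbers alone, and each library left out. Promoter windows are from RefSeq. Python 3.11.15 and matplotlib 3.10.9 served for plotting.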

Additional observations from a re-analysis of the deposited data

Results flagged for a closer look

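Among the 64 groups of 6 libraries looked at, 1 library stood far from the other 5 in 3 cases, and chance gives about 1 in 20 groups. Ccn3 had a normalized count of 583 in vehicle replicate 2, above the other vehicle libraries and farther from BAM15. Aph1c had 23.8 in vehicle replicate 4, above the other vehicle libraries and below the BAM15 libraries. Bhlhe41 had 1437 in BAM15 replicate 6, below the other BAM15 libraries and above all vehicle libraries.

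The change between BAM15 and vehicle differed between library numbers 4 to 6 and 1 to 3 in 3 pathway genes at an adjusted p-value below 0.05 (edgeR's quasi-likelihood interaction test): Furin by -0.42, Dtx4 by -0.43 and Maml3 by -0.75 on the log2 scale. What the numbers stand for is not stated.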

How the results depend on the processing

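Of 210 changes of the 10 Notch genes over the alternatives, 207 kept their direction and side of the threshold. With library numbers 1 to 3 only, Notch2 (-0.62) and Hes1 (-1.07) moved past it, which made 6 genes called rather than 4. In that setting 5730 of all 12898 tested genes were called. With numbers 4 to 6 only, Jag2 turned to 0.039. Every alternative except numbers 1 to 3 only called 4 of the 10. Leaving out each library in turn gave 0 to 2 of the 10 genes with a difference between library numbers, the 2 without BAM15 replicate 4. It gave 22 to 26 called pathway genes, beside 4874 to 5509 of all tested genes. With the replicate block, 4 of the 10 genes and 25 of the 61 pathway genes rather than 22 were called. Over all tested genes 5292 rather than 5379 were called, and 933 rather than 927 were past the 3 thresholds. In the check of pairing, 2 of 6 libraries correlated best with their own number. Over all alternatives 21 to 30 pathway genes were called, beside 4265 to 6097 of all tested genes at the same threshold. The 30 came with library numbers as a term, where 6066 of all tested genes were called. Past the 3 thresholds were 903 to 1046 genes. Depth limits Dll1, Dner and Aph1c, whose mean normalized counts were below 50.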
